A study of Mus musculus with 12 samples.

Results

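The 10 Toll-like receptor genes Tlr1, Tlr2, Tlr3, Tlr4, Tlr5, Tlr6, Tlr7, Tlr8, Tlr9 and Tlr13 were read by gene symbol in a table of 36491 mouse genes. They were measured by RNA-seq in brain cells enriched with magnetic beads against CD11b, a surface integrin of macrophages, microglia and neutrophils. All 10 were found, and all 10 were among the 18875 genes that passed the filter on low counts. Toll-like receptors are membrane proteins that bind conserved pieces of microbes and signal through the adaptors MyD88 and TRIF to the transcription factors NF-kB and IRF. Tlr1, Tlr2, Tlr4, Tlr5 and Tlr6 act mainly at the cell surface on lipids and proteins, whereas Tlr3, Tlr7, Tlr8, Tlr9 and Tlr13 act in endosomes on nucleic acids. In the brain, microglia and other macrophages are the main cells that carry them, and LPS, a lipid of the outer membrane of Gram-negative bacteria, is sensed by Tlr4.

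All mice were wild-type C57BL/6J males aged 6 months that received a bone marrow transplant. All were given food with PLX5622 for 2 weeks and then standard chow for 6 weeks. PLX5622 blocks the CSF1 receptor, on which microglia depend for survival. Unshielded mice were irradiated without a head shield, and shielded mice had the head kept out of the irradiation. Mice were then injected with 50 µg of LPS or with saline, and cells were taken 6 hours later. The 4 groups of 3 libraries were unshielded LPS, shielded LPS, unshielded without LPS and shielded without LPS. There was no group without a transplant or without PLX5622.

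The libraries held 18090977 to 60495968 counts each, of which single members had 181 to 95903. For shielded libraries 2 and 3 without LPS, the titles and the treatment field disagree, since the field says LPS. A set of 10 genes known to rise after LPS had a mean log2 CPM of 7.34 to 8.65 in the 6 LPS libraries and 2.94 to 4.51 in the 6 libraries without LPS, with these 2 libraries at 3.31 and 2.94. Groups follow the titles. Leaving these 2 libraries out leaves shielded mice without LPS with library 1 alone, so that each value without them rests on that library there and takes its spread from the other groups. Such values are given where they end a call on a named gene, and for every member after LPS in shielded mice. For lists of cell markers the median is given where calls were lost. Summed levels of 12 markers of marrow-derived brain macrophages were 80880 to 106100 counts per 1000000 of the TMM-scaled library size (CPM) in unshielded LPS libraries and 2729 to 4643 CPM in shielded LPS libraries. Without LPS the same sum was 58560 to 89070 CPM in unshielded libraries and 6834 to 24010 CPM in shielded libraries. Apoe, which encodes a lipid carrier protein, made up 89.0 to 98.2% of this sum in each library. The other 11 markers summed to 2481 to 3087 CPM and 285.9 to 441.0 CPM in unshielded and shielded LPS libraries, and 1248 to 1626 CPM and 326.9 to 476.6 CPM in unshielded and shielded libraries without LPS. Summed levels of 12 microglia markers were 8531 to 10180 CPM and 17120 to 18540 CPM in unshielded and shielded LPS libraries, and 11310 to 15080 CPM and 24000 to 28870 CPM in unshielded and shielded libraries without LPS. No marker on either list was at 0 in any library. In such bulk samples, fewer cells of a type and less RNA per cell cannot be told apart.

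The promoters of Tlr2, Tlr6 and Tlr8 are shown because these genes carry much of the results and hold motifs of factors that act downstream of Toll-like receptors or in myeloid cells. Each runs from 250 bases before to 50 bases after the start site (RefSeq, GRCm38.p6), 5′ to 3′ on the gene's own strand, with motif matches in capitals. The Tlr2 window lies on the minus strand at chr3:83841559-83841858, and its capitals mark matches to an NF-kB motif at positions -173 to -163 (2 overlapping matches) and -8 to 2 from the start site. The Tlr6 window lies on the minus strand at chr5:64959117-64959416, and its capitals mark 2 overlapping matches to GAAANNGAAA, an interferon-response element, at positions -116 to -101. The Tlr8 window lies on the minus strand at chrX:167264280-167264579, and its capitals mark a match to GAGGAA, a core of the motif of the myeloid factor PU.1, at positions -77 to -72.
Tlr2: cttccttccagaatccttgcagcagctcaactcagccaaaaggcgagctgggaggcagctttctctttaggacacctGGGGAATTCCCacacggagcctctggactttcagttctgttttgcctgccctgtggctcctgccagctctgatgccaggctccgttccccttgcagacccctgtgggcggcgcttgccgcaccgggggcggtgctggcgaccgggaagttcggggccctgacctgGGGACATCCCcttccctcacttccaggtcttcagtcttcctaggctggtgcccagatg
Tlr6: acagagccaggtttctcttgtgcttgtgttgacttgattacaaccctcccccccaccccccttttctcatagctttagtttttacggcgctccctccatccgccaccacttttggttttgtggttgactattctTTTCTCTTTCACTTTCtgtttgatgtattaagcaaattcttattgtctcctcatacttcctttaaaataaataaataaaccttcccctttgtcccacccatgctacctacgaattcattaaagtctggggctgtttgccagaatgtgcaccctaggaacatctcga
Tlr8: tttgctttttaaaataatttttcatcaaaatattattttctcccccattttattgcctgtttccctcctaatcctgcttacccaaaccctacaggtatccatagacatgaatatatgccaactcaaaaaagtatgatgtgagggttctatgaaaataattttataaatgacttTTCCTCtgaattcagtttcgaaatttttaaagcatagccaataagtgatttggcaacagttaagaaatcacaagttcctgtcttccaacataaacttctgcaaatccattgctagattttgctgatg
Both strands were searched. Of the 10 genes, 8 had a promoter in the RefSeq table (10 windows), and Tlr4 and Tlr7 had none. A member was counted if any of its windows matched, whereas the shares of all promoters are of single windows. The NF-kB motif was found in windows of 2 members (Tlr2 and Tlr3), against 8.46% of all 32851 promoters. GAAANNGAAA was found in 1 member (Tlr6), against 3.44% of all promoters. Another Tlr6 window, at chr5:64959999-64960298, held no match to any of these motifs. GAGGAA was found in 4 members (Tlr1, Tlr8, Tlr9 and Tlr13), against 28.3% of all promoters. A match describes letters and not a bound site.

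Tlr2 was the most abundant member in all 4 groups, and Tlr5 had the lowest mean in each. Levels of different genes were compared as CPM per kb of exon length. The RNA was linearly amplified, and how evenly reads cover the exons was not tested. Tlr2 stood at 319.4 ± 69.5 CPM per kb in unshielded LPS libraries, 784.7 ± 183.7 in shielded LPS libraries, 126.9 ± 18.6 in unshielded libraries without LPS and 93.6 ± 10.2 in shielded libraries without LPS (SD, n = 3 each). Tlr7 and Tlr13 held the next ranks in every group, Tlr7 above Tlr13 after LPS and Tlr13 above Tlr7 without LPS, with no overlap between the values of Tlr2, Tlr7 and Tlr13. Tlr8 changed its place most. It ranked 4 in unshielded LPS libraries (55.6 ± 8.81 CPM per kb), where its values overlapped those of Tlr13 (62.9 ± 3.57), and 6 in unshielded libraries without LPS (19.2 ± 2.20). In shielded mice it ranked 9, with 2.74 ± 1.28 CPM per kb after LPS and 3.35 ± 1.63 without LPS, and there its values overlapped those of Tlr5 (2.72 ± 0.05 and 3.19 ± 0.47). Tlr4, the LPS receptor itself, was a gene of low level, at 7.84 ± 0.14 and 8.49 ± 0.90 CPM per kb in unshielded and shielded LPS libraries, and 10.3 ± 0.21 and 10.5 ± 0.94 in unshielded and shielded libraries without LPS. Among neighbours in the order, Tlr1 and Tlr9 overlapped in unshielded LPS libraries, as did Tlr6 and Tlr4 there, Tlr3 and Tlr6 in shielded LPS libraries, and Tlr6 and Tlr3 in unshielded libraries without LPS. All other neighbours had separate ranges.

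**Figure D1:**
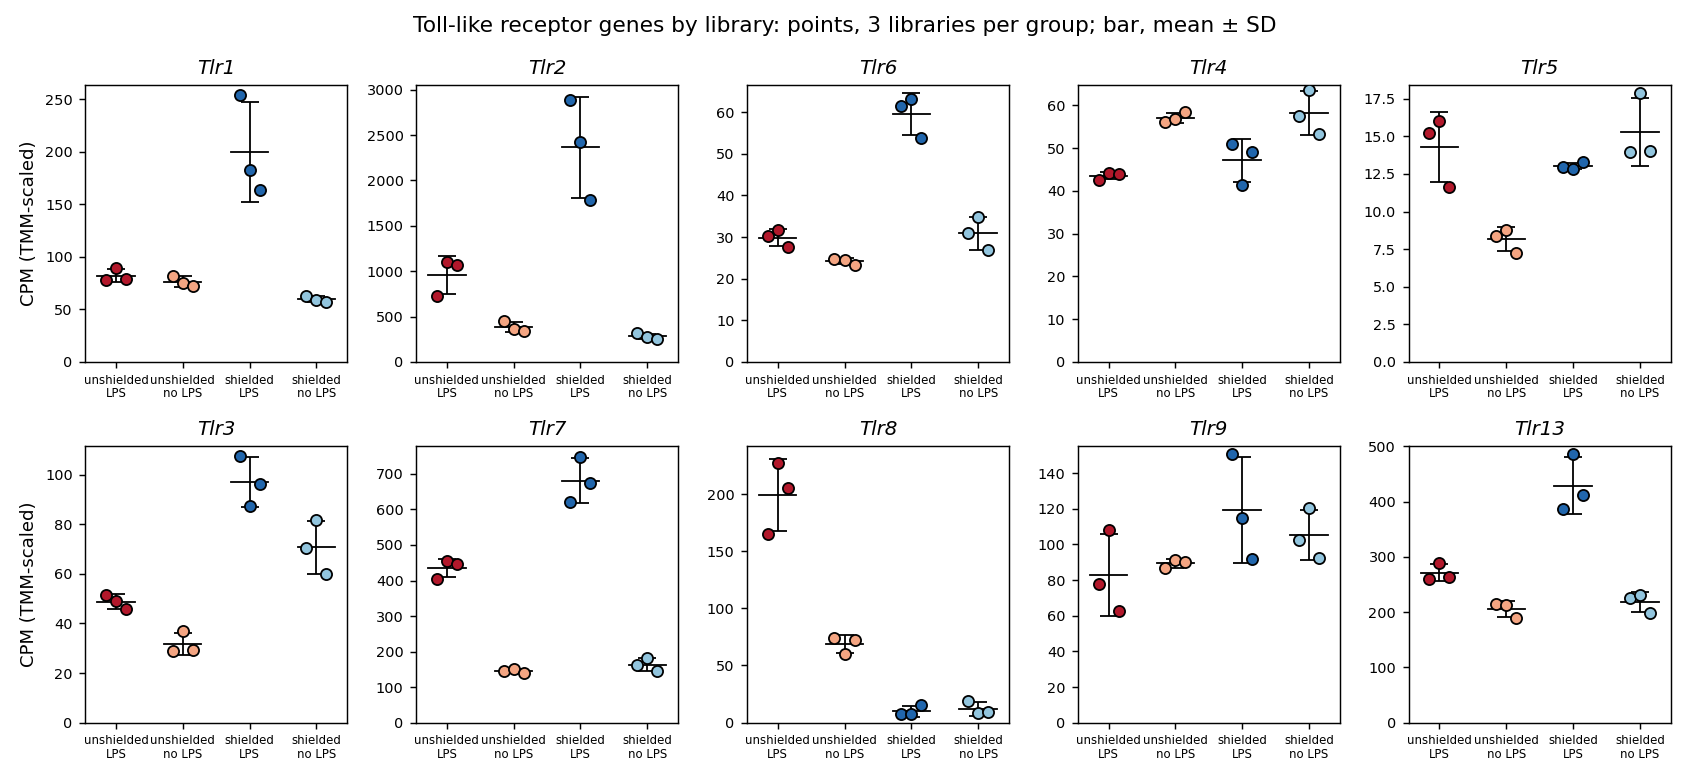
TMM-scaled CPM (vertical axis from 0, a scale of its own for each gene) of the 10 Toll-like receptor genes in each library, by group. Points are the 3 libraries of a group and bars the mean ± SD. Tlr2 reached 1786 to 2889 CPM in shielded LPS libraries, and Tlr8 reached 165.3 to 227.6 CPM in unshielded LPS libraries against 7.16 to 15.1 CPM in shielded LPS libraries.

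After LPS, 7 of the 10 genes rose and 1 fell in unshielded mice, and 6 rose and 1 fell in shielded mice (edgeR quasi-likelihood test, Benjamini-Hochberg adjusted over all genes tested). In unshielded mice 43.1% of all genes tested were called, 24.3% higher and 18.8% lower, and in shielded mice 67.5% were called, 32.4% higher and 35.1% lower. Without the libraries with conflicting labels, 6 members rose and none fell in shielded mice, against 22.4% and 19.0% of 20198 genes tested, with log2 fold changes of 1.66 for Tlr1, 2.90 for Tlr2, 0.47 for Tlr3, 0.94 for Tlr6, 2.07 for Tlr7 and 0.93 for Tlr13 (edgeR adjusted p of 2.383e-05 to 0.04621). Under the same setting Tlr4 stood at -0.29, Tlr5 at -0.10, Tlr8 at -0.93 and Tlr9 at 0.22, none of them called. With all libraries, the median log2 fold change of the members was 0.51 in unshielded and 0.70 in shielded mice, beside -0.06 and -0.14 over all genes tested. Unshielded mice had 1 member higher and 3 lower than shielded mice without LPS, where 3.98% of all genes were higher and 6.85% lower (10.8% in all). After LPS unshielded mice had 1 member higher and 6 lower than shielded mice, where 19.1% of all genes were higher and 25.6% lower (44.6% in all). The LPS effect itself differed between unshielded and shielded mice for 7 members, of which 2 had a higher and 5 a lower log2 fold change in unshielded mice, against 4.06% and 9.25% of all genes (13.3% in all). Without overlap between libraries, after LPS 7 members were higher and 1 lower in unshielded mice (29.6% and 31.7% of all genes) and 6 higher and 2 lower in shielded mice (34.1% and 35.7%). Between unshielded and shielded mice 3 members were higher and 4 lower without LPS (14.2% and 19.4% of all genes), and 1 was higher and 6 lower after LPS (21.8% and 27.6%). These comparisons share libraries, so the lists they give are not independent of each other.

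The values depend on a common scale. With library totals in place of TMM scaling, the median log2 fold change of all genes after LPS was -0.36 in unshielded and -0.49 in shielded mice, and changes of the members shifted with it. Under that scaling Tlr2, Tlr5, Tlr7 and Tlr8 still rose in unshielded mice and Tlr1, Tlr2, Tlr6, Tlr7 and Tlr13 in shielded mice, and Tlr4 fell in both. The LPS effects on Tlr3 in both groups and on Tlr6 and Tlr13 in unshielded mice no longer passed the test.

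Tlr2 (ENSMUSG00000027995, chromosome 3) forms pairs with Tlr1 and with Tlr6 that bind bacterial lipopeptides. Its level was 721.7, 1102 and 1064 CPM in unshielded LPS libraries, 2889, 2420 and 1786 CPM in shielded LPS libraries, 445.9, 362.6 and 339.25 CPM in unshielded libraries without LPS and 316.5, 272.3 and 257.7 CPM in shielded libraries without LPS. The LPS libraries lay above those without LPS in both kinds of mice, and every shielded LPS library lay above every unshielded LPS library. Tlr2 rose 2.52-fold in unshielded mice, or by 1.33 ± 0.20 on the log2 scale (SE; edgeR adjusted p = 0.0001732), and 8.38-fold in shielded mice (3.07 ± 0.21; edgeR adjusted p = 1.592e-07). The log2 LPS effect in unshielded mice minus that in shielded mice was -1.74 ± 0.28 (edgeR adjusted p = 0.002899). It did not pass the test without the libraries whose labels conflict (-1.58; edgeR adjusted p = 0.07407). After LPS the unshielded level was 2.46-fold lower than the shielded one (log2 -1.30 ± 0.20; edgeR adjusted p = 0.0002251). Without LPS the difference of 0.44 ± 0.19, with higher values in unshielded libraries, did not pass the test (edgeR adjusted p = 0.2041).

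Tlr1 (ENSMUSG00000044827, chromosome 5) is the partner of Tlr2 for triacylated lipopeptides. Its level was 77.9, 89.4 and 78.8 CPM in unshielded LPS libraries, 253.6, 182.1 and 163.0 CPM in shielded LPS libraries, 81.8, 74.9 and 72.1 CPM in unshielded libraries without LPS and 63.1, 59.3 and 56.8 CPM in shielded libraries without LPS. Only the shielded LPS libraries stood apart by a wide margin, and in unshielded mice the libraries with and without LPS overlapped. In unshielded mice the log2 LPS effect was 0.11 ± 0.14, with a 95% interval of -0.19 to 0.40 (edgeR adjusted p = 0.5503), and with library totals it was -0.19. In shielded mice Tlr1 rose 3.34-fold (log2 1.74 ± 0.14; edgeR adjusted p = 5.058e-07). The difference of the effects, -1.63 ± 0.20 (edgeR adjusted p = 0.000913), was called in every alternative run except the grouping by the treatment field, including the one without the libraries with conflicting labels, where the shielded group without LPS is 1 library (-1.56; edgeR adjusted p = 0.03522). Unshielded Tlr1 was 2.43-fold lower after LPS (log2 -1.28 ± 0.14; edgeR adjusted p = 2.201e-05), and without LPS the difference was 0.35 ± 0.14 (edgeR adjusted p = 0.1431). That difference passed the test with library totals (edgeR adjusted p = 0.02362).

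Tlr6 (ENSMUSG00000051498, chromosome 5) pairs with Tlr2 for diacylated lipopeptides. It had 30.2, 31.75 and 27.6 CPM in unshielded LPS libraries, 61.5, 63.15 and 53.75 CPM in shielded LPS libraries, 24.8, 24.4 and 23.4 CPM in unshielded libraries without LPS and 31.1, 34.8 and 26.9 CPM in shielded libraries without LPS. The shielded LPS libraries lay above all others. Tlr6 rose 1.23-fold in unshielded mice (log2 0.30 ± 0.10; edgeR adjusted p = 0.0295) and 1.93-fold in shielded mice (0.95 ± 0.10; edgeR adjusted p = 5.324e-06), a difference of the log2 effects of -0.64 ± 0.14 (edgeR adjusted p = 0.01283). The increase in unshielded mice did not pass the DESeq2 test (adjusted p = 0.05049), the fit with library totals or 7 of the 12 fits that left out 1 library. After LPS, unshielded Tlr6 was 1.99-fold lower (log2 -0.99 ± 0.10; edgeR adjusted p = 1.564e-05). Without LPS it was 1.28-fold lower (log2 -0.35 ± 0.10; edgeR adjusted p = 0.04492), a call that the DESeq2 test (adjusted p = 0.07072) and 8 of the 12 fits without 1 library did not make. Without the libraries with conflicting labels, with 1 shielded library left without LPS, the difference of effects was -0.64 (edgeR adjusted p = 0.08617) and the difference without LPS -0.37 (edgeR adjusted p = 0.2393), neither called. Tlr1 and Tlr6 are alike in part of their sequence. They shared 454 stretches of 50 bases, 13.6% of those in Tlr1 and 12.3% of those in Tlr6. Reads from there may have been left out of the counts or given to the wrong gene. On the per-kb scale the ratio of Tlr2 to Tlr1 was 12.99 ± 2.43 and 13.2 ± 1.38 in unshielded and shielded LPS libraries, and 5.55 ± 0.44 and 5.23 ± 0.29 in unshielded and shielded libraries without LPS. Every LPS library had a higher ratio than every library without LPS.

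Values of neuron and oligodendrocyte markers moved with LPS in the shielded mice. Of 8 neuron markers 7 were lower after LPS and of 8 oligodendrocyte markers all 8 were lower (edgeR), against 35.1% of all genes. Their median log2 fold changes were -1.62 and -1.43. Without the libraries with conflicting labels, with 1 shielded library left without LPS, the medians were -1.69 and -1.22. Fewer of these markers were then called. In unshielded mice the median log2 fold changes after LPS were -0.73 and -0.66, beside -0.06 over all genes. There 0 neuron markers and 1 oligodendrocyte marker were called lower, against 18.8% of all genes. The neuron sum was 115.6 to 218.1 CPM in unshielded LPS libraries and 271.7 to 314.3 CPM in unshielded libraries without LPS. The sum of the neuron markers was 32.9, 61.5 and 162.8 CPM in shielded LPS libraries 1, 2 and 3, and 283.6, 184.5 and 339.3 CPM in shielded libraries without LPS. Tlr2, Tlr1 and Tlr9 had the opposite order within the shielded LPS libraries, highest in library 1 and lowest in library 3. The other members did not have this order. Tlr7 (621.6, 749.0 and 673.3 CPM in libraries 1, 2 and 3) and Tlr13 (386.7, 486.2 and 412.1 CPM) were lowest in library 1. With the mean level of these markers in the model, the LPS effect in shielded mice was 2.47 for Tlr2 and 1.22 for Tlr1, both still called. The same term ended the calls for Tlr6 in unshielded mice (0.20; edgeR adjusted p = 0.09998) and for the difference of LPS effects on Tlr7 (-0.46; edgeR adjusted p = 0.0681) and on Tlr8 (1.59; edgeR adjusted p = 0.1275). It added calls between unshielded and shielded mice without LPS for Tlr1 (0.36; edgeR adjusted p = 0.003865) and Tlr2 (0.45; edgeR adjusted p = 0.03918). Its effects on Tlr3 and Tlr9 are given with those genes.

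Tlr4 (ENSMUSG00000039005, chromosome 4), which with MD-2 and CD14 binds LPS, was lower after LPS. It had 42.6, 44.1 and 43.9 CPM in unshielded LPS libraries, 50.9, 41.4 and 49.05 CPM in shielded LPS libraries, 56.0, 56.8 and 58.3 CPM in unshielded libraries without LPS and 57.6, 63.65 and 53.2 CPM in shielded libraries without LPS. In both kinds of mice all LPS libraries lay below all libraries without LPS. Tlr4 fell by 0.39 ± 0.09 on the log2 scale in unshielded mice (edgeR adjusted p = 0.003737) and by 0.30 ± 0.09 in shielded mice (edgeR adjusted p = 0.01032). In shielded mice, edgeR fits with a replicate block gave an adjusted p of 0.05023 and fits that left out the libraries with conflicting labels an adjusted p of 0.09349, so the call was lost. It was also lost when shielded LPS library 2 (edgeR adjusted p = 0.07348) or shielded library 2 of the mice given no LPS (edgeR adjusted p = 0.05892) was left out. The effects differed by -0.09 ± 0.13, with a 95% interval of -0.36 to 0.19. Unshielded and shielded levels differed by -0.12 ± 0.09 after LPS and -0.03 ± 0.09 without LPS, neither called.

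Tlr5 (ENSMUSG00000079164, chromosome 1) binds flagellin, the protein of bacterial flagella, and was the gene with the lowest mean level. Tlr5 had 15.2, 16.05 and 11.65 CPM in unshielded LPS libraries, 12.95, 12.85 and 13.3 CPM in shielded LPS libraries, 8.39, 8.81 and 7.26 CPM in unshielded libraries without LPS and 14.0, 17.9 and 14.05 CPM in shielded libraries without LPS. The unshielded libraries without LPS were the lowest, with no overlap with any other group. Tlr5 rose 1.76-fold in unshielded mice (log2 0.81 ± 0.14; edgeR adjusted p = 0.0005923). In shielded mice the effect was -0.23 ± 0.14, with a 95% interval of -0.54 to 0.08 (edgeR adjusted p = 0.1626), and with library totals it was -0.57 (edgeR adjusted p = 0.003577). The effects differed by 1.04 ± 0.20 (edgeR adjusted p = 0.00635). Without LPS, unshielded Tlr5 was 1.88-fold lower (log2 -0.91 ± 0.14; edgeR adjusted p = 0.001403). Without the libraries with conflicting labels the difference of effects was 0.91 (edgeR adjusted p = 0.09038) and the difference without LPS -0.79 (edgeR adjusted p = 0.08032).

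**Figure D2:**
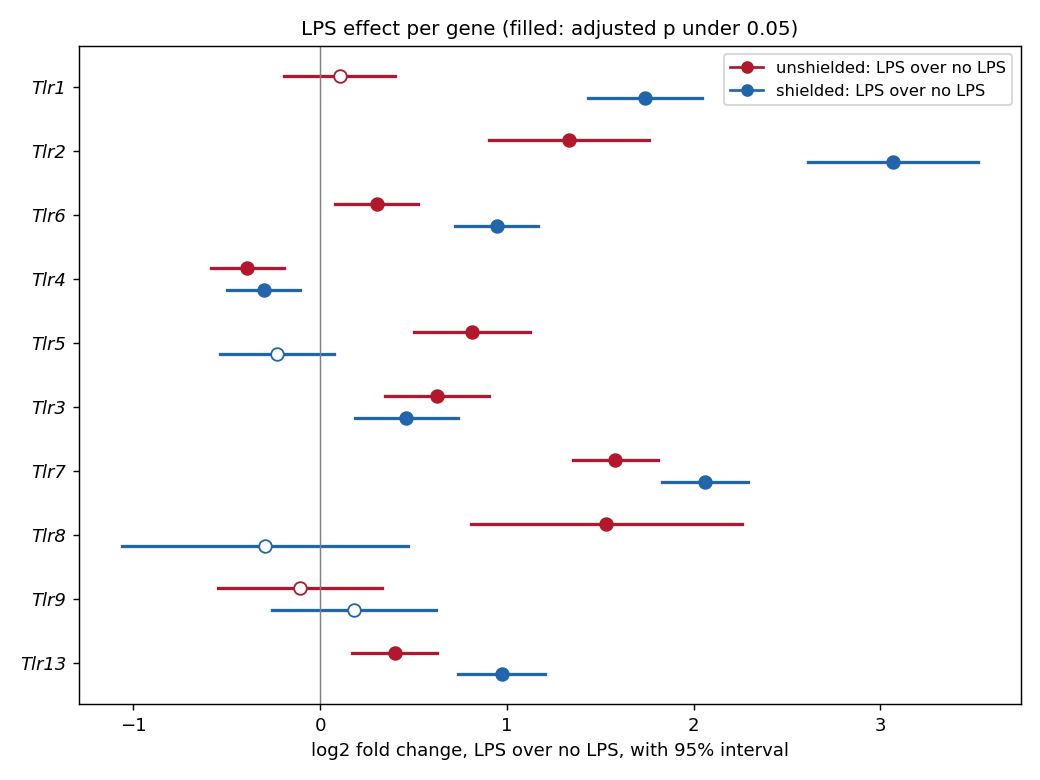
Log2 fold change of each Toll-like receptor gene, LPS over no LPS (horizontal axis), in unshielded and shielded mice, with the 95% interval, and filled points where the edgeR adjusted p was under 0.05. Tlr2 stood at 1.33 in unshielded and 3.07 in shielded mice, whereas Tlr8 stood at 1.53 in unshielded and -0.30 in shielded mice.

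Tlr7 (ENSMUSG00000044583, chromosome X), which senses single-stranded RNA, was the endosomal member with the highest level after LPS. It had 405.4, 455.1 and 445.1 CPM in unshielded LPS libraries, 621.6, 749.0 and 673.3 CPM in shielded LPS libraries, 146.1, 151.0 and 139.2 CPM in unshielded libraries without LPS and 163.0, 180.7 and 145.9 CPM in shielded libraries without LPS. LPS and no-LPS libraries did not overlap in either kind of mouse, and the unshielded LPS libraries lay below the shielded ones. Tlr7 rose 2.99-fold in unshielded mice (log2 1.58 ± 0.11; edgeR adjusted p = 4.192e-07) and 4.18-fold in shielded mice (2.06 ± 0.11; edgeR adjusted p = 2.518e-08). The difference of the effects, -0.48 ± 0.15 (edgeR adjusted p = 0.04682), lost its call in 8 of the 12 fits that left out 1 library and without the libraries with conflicting labels (edgeR adjusted p = 0.1981). After LPS, unshielded Tlr7 was 1.57-fold lower (log2 -0.65 ± 0.10; edgeR adjusted p = 0.0003045). Without LPS the values differed by -0.17 ± 0.10 (edgeR adjusted p = 0.4124).

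Tlr13 (ENSMUSG00000033777, chromosome X), which in mice senses bacterial ribosomal RNA, had 260.2, 288.5 and 264.0 CPM in unshielded LPS libraries, 386.7, 486.2 and 412.1 CPM in shielded LPS libraries, 214.5, 212.8 and 189.1 CPM in unshielded libraries without LPS and 225.3, 231.8 and 198.2 CPM in shielded libraries without LPS. The libraries without LPS overlapped between unshielded and shielded mice, and the LPS libraries did not. Tlr13 rose 1.32-fold in unshielded mice (log2 0.40 ± 0.11; edgeR adjusted p = 0.00875) and 1.96-fold in shielded mice (0.97 ± 0.11; edgeR adjusted p = 6.217e-06). In unshielded mice the call was lost without unshielded library 3 without LPS (edgeR adjusted p = 0.06966). After LPS, unshielded Tlr13 was 1.58-fold lower (log2 -0.66 ± 0.11; edgeR adjusted p = 0.0003176). The difference of the effects was -0.57 ± 0.15 (edgeR adjusted p = 0.0251), and without the libraries with conflicting labels it was -0.53 (edgeR adjusted p = 0.1949). Without LPS the unshielded and shielded levels differed by -0.09 ± 0.11, with a 95% interval of -0.32 to 0.14 (edgeR adjusted p = 0.7366).

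Tlr8 (ENSMUSG00000040522), known in humans as a receptor for single-stranded RNA and encoded next to Tlr7 on the X chromosome, separated unshielded from shielded mice more than any other member. It had 165.3, 227.6 and 205.5 CPM in unshielded LPS libraries, 7.20, 7.16 and 15.1 CPM in shielded LPS libraries, 74.1, 59.8 and 72.7 CPM in unshielded libraries without LPS and 18.7, 8.01 and 9.31 CPM in shielded libraries without LPS. Every unshielded library lay above every shielded library, with or without LPS. Unshielded Tlr8 was 20.2-fold higher after LPS (log2 4.34 ± 0.38; edgeR adjusted p = 1.218e-05) and 5.70-fold higher without LPS (2.51 ± 0.35; edgeR adjusted p = 0.001026). Without the libraries with conflicting labels the difference without LPS was 1.87 (edgeR adjusted p = 0.06368), against that 1 library.

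Tlr8 rose 2.89-fold after LPS in unshielded mice (log2 1.53 ± 0.33; edgeR adjusted p = 0.003223). In shielded mice the value was -0.30 ± 0.35, with a 95% interval of -1.06 to 0.47 (edgeR adjusted p = 0.4635), and its sign turned without shielded library 1 without LPS (0.18). With that library as the only one of its group, it was -0.93 (edgeR adjusted p = 0.06586). The effects differed by 1.83 ± 0.48 (edgeR adjusted p = 0.02962), which lost its call in 8 of the 12 fits that left out 1 library (edgeR adjusted p of 0.05146 to 0.07018). Without the libraries with conflicting labels it was 2.46 (edgeR adjusted p = 0.04572), a value that rests on shielded library 1 without LPS, the one with the highest Tlr8 level of its group. The ratio of Tlr8 to Tlr7 per kb was 0.520 ± 0.053 and 0.0165 ± 0.0079 in unshielded and shielded LPS libraries, and 0.541 ± 0.079 and 0.0846 ± 0.041 in unshielded and shielded libraries without LPS.

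Markers of marrow-derived brain macrophages moved with Tlr8 between unshielded and shielded mice. All 12 were higher in unshielded than in shielded mice both after and without LPS (edgeR), with median log2 fold changes of 3.79 and 2.47. Of all genes 19.1% and 3.98% were higher. Without the libraries with conflicting labels the median without LPS was 1.68, against 1 shielded library, and fewer of the 12 were called. Within the shielded libraries the highest Tlr8 values, 15.1 CPM in LPS library 3 and 18.7 CPM in library 1 without LPS, stood in the libraries with the highest marker sums of their groups, 4643 and 24010 CPM. Apoe was 4202 and 23540 CPM of these sums, and the sums of the other 11 markers, 441.0 and 476.6 CPM, were also the highest of their groups. After LPS, where Tlr8 rose in unshielded mice, 3 of the 12 markers were higher and 2 lower there (24.3% and 18.8% of all genes). Their median log2 fold change was 0.18. In shielded mice 2 were higher and 9 lower (32.4% and 35.1% of all genes), with a median of -0.92. The markers came from general knowledge that may include work on these samples, and their part in the levels of Tlr8 was not tested. Of 12 neutrophil markers 6 were higher after LPS in unshielded mice, against 24.3% of all genes. Their sum was highest in unshielded LPS library 1 (1299 CPM), the library with the lowest Tlr8 level of that group. Of 9 monocyte markers 7 were higher and 1 lower there after LPS, with a median of 3.48. Their sum was also highest in library 1 (455.9 CPM), and their mean log2 CPM in library 2 (5.03), which had the highest Tlr8 level. Chil3 alone was 130.15 CPM of the sum in library 1, against 33.4 and 29.8 CPM in libraries 2 and 3. The part of either list in the levels of Tlr8 was not tested.

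**Figure D3:**
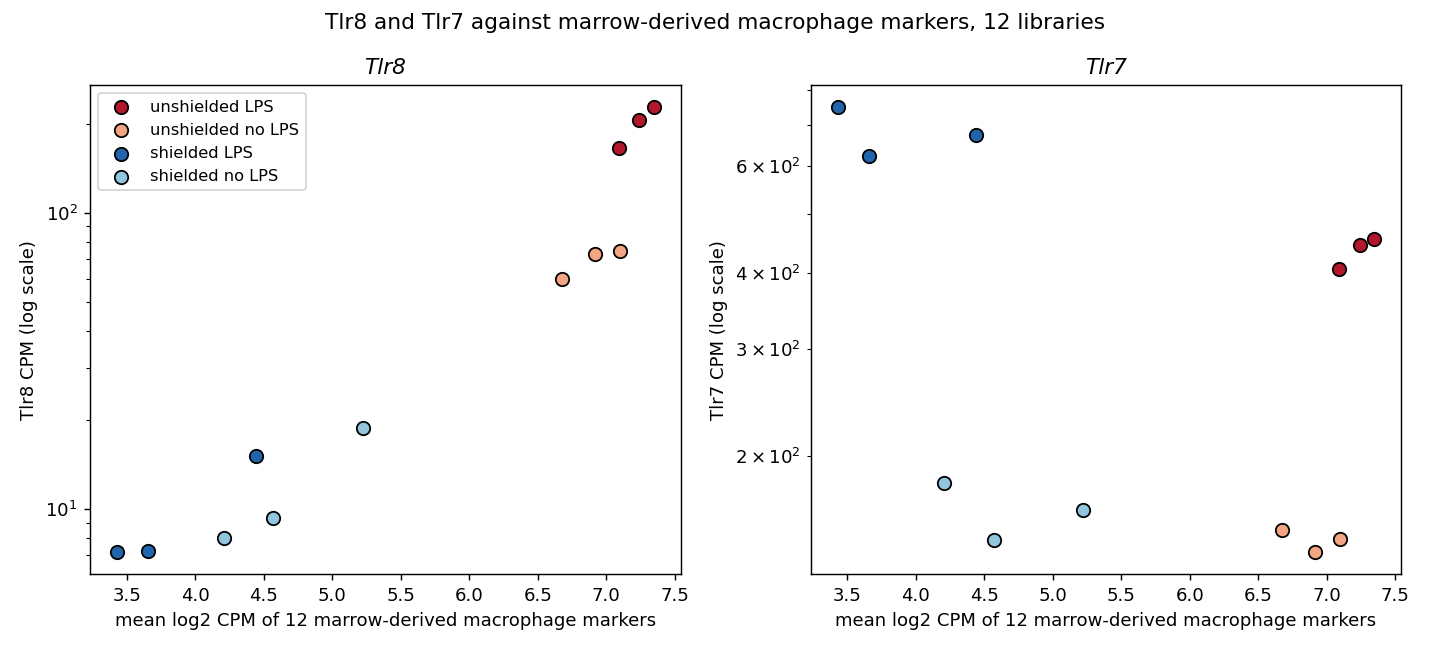
CPM of Tlr8 and of Tlr7 (vertical axes, log scale) against the mean log2 CPM of 12 markers of marrow-derived brain macrophages (horizontal axis), in which each marker has equal weight, in the 12 libraries, coloured by group. The 6 unshielded libraries lie at 6.68 to 7.35 and 59.8 to 227.6 CPM of Tlr8, whereas the 6 shielded libraries lie at 3.43 to 5.22 and 7.16 to 18.7 CPM of Tlr8.

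Tlr9 (ENSMUSG00000045322), which senses unmethylated CpG DNA, was called in none of the 5 comparisons. It had 77.7, 108.1 and 62.9 CPM in unshielded LPS libraries, 150.9, 114.6 and 91.9 CPM in shielded LPS libraries, 86.6, 91.3 and 90.3 CPM in unshielded libraries without LPS and 102.4, 120.5 and 92.65 CPM in shielded libraries without LPS. The LPS libraries varied widely within their groups and overlapped those without LPS in both kinds of mice. The LPS effect was -0.11 ± 0.20 in unshielded mice (95% interval -0.55 to 0.33) and 0.18 ± 0.20 in shielded mice (95% interval -0.26 to 0.62), a difference of -0.29 ± 0.28 (95% interval -0.91 to 0.33). With library totals Tlr9 fell by 0.42 on the log2 scale in unshielded mice (edgeR adjusted p = 0.04531). Its sign in shielded mice turned with library totals (-0.18) and with the neuron and oligodendrocyte level in the model (-0.59; edgeR adjusted p = 0.00765). With that level in the model Tlr9 also fell by 0.44 in unshielded mice (edgeR adjusted p = 0.00492). After LPS, unshielded Tlr9 stood at -0.52 ± 0.20 against shielded Tlr9 (edgeR adjusted p = 0.05222), and the DESeq2 test called this difference (adjusted p = 0.03394). With the neuron and oligodendrocyte level in the model it was -0.06 (edgeR adjusted p = 0.7571).

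Tlr3 (ENSMUSG00000031639, chromosome 8), which senses double-stranded RNA and signals through TRIF, was lower in unshielded mice both after and without LPS. It had 51.7, 49.0 and 45.8 CPM in unshielded LPS libraries, 107.7, 87.5 and 96.4 CPM in shielded LPS libraries, 28.8, 36.9 and 29.35 CPM in unshielded libraries without LPS and 70.5, 81.6 and 59.9 CPM in shielded libraries without LPS. All 6 unshielded libraries lay below all 6 shielded libraries. Unshielded Tlr3 was 1.99-fold lower after LPS (log2 -0.99 ± 0.13; edgeR adjusted p = 6.343e-05) and 2.24-fold lower without LPS (-1.16 ± 0.13; edgeR adjusted p = 0.0002436). Against the 1 shielded library left without those with conflicting labels, the difference without LPS was -1.16 (edgeR adjusted p = 0.02203). After LPS it rose by 0.63 ± 0.13 on the log2 scale in unshielded mice (edgeR adjusted p = 0.001739) and by 0.46 ± 0.13 in shielded mice (edgeR adjusted p = 0.006632), and the effects differed by 0.17 ± 0.18, with a 95% interval of -0.22 to 0.56. The increase in shielded mice was not called with the neuron and oligodendrocyte level in the model (edgeR adjusted p = 0.3298). Between unshielded and shielded mice Tlr3 moved beside the microglia markers. Of these 10 of 12 were lower in unshielded mice after LPS and 10 of 12 without LPS (edgeR), against 25.6% and 6.85% of all genes. After LPS Tlr3 and these markers went opposite ways. Of the 12 markers 9 were lower after LPS in unshielded mice and 10 in shielded mice (18.8% and 35.1% of all genes). The median log2 fold change was -1.087 between unshielded and shielded mice without LPS and -0.64 for LPS in shielded mice. Without the libraries with conflicting labels these medians were -1.045 and -0.59, against 1 shielded library without LPS, and fewer of the markers were called. Their part in the levels of Tlr3 was not tested. An annotated gene on the other strand shares 381 exon bases with Tlr3, and with the strand setting of the counting not given, reads from there cannot be told apart.

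**Figure D4:**
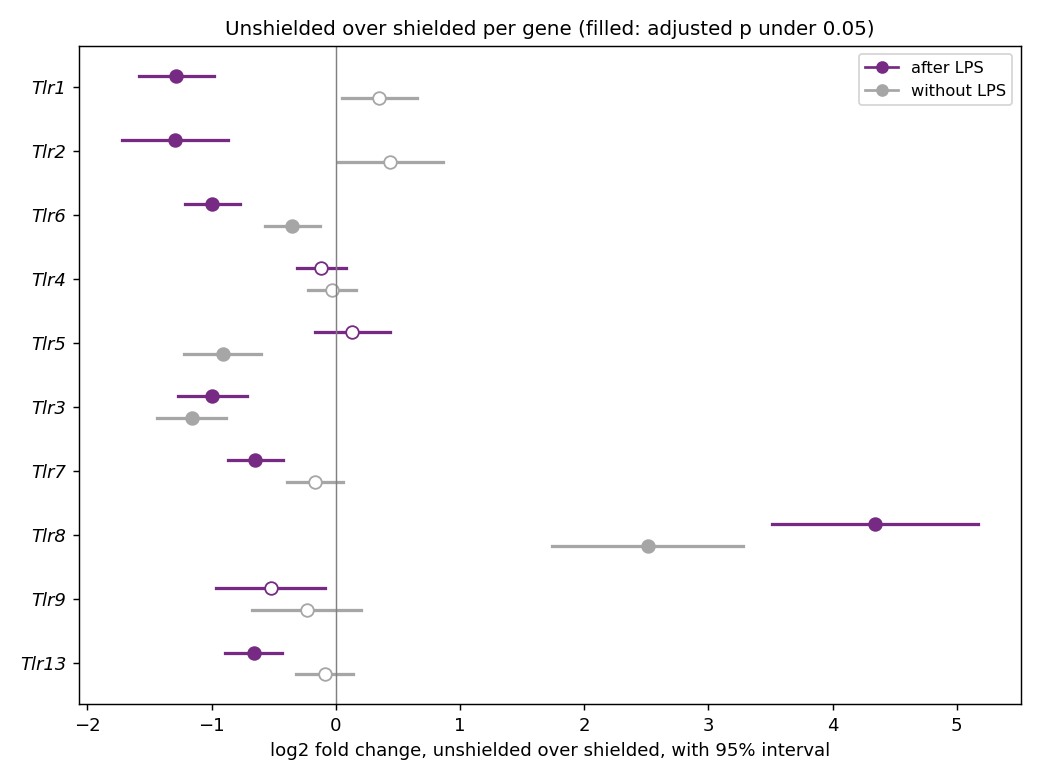
Log2 fold change of each Toll-like receptor gene, unshielded over shielded (horizontal axis), after LPS and without LPS, with the 95% interval, and filled points where the edgeR adjusted p was under 0.05. Tlr8 stood at 4.34 after LPS and 2.51 without LPS, and Tlr3 at -0.99 and -1.16.

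The summed level of the 10 genes was 621.2 ± 90.7 CPM per kb in unshielded LPS libraries, 1194 ± 199.8 in shielded LPS libraries, 302.6 ± 23.1 in unshielded libraries without LPS and 271.3 ± 23.1 in shielded libraries without LPS. Surface members made up 58.1% ± 3.46 of that sum in unshielded LPS libraries, 72.5% ± 4.66 in shielded LPS libraries, 55.5% ± 2.42 in unshielded libraries without LPS and 49.2% ± 2.13 in shielded libraries without LPS. The shielded LPS libraries had the highest surface share, 68.3 to 77.5%, and the shielded libraries without LPS the lowest, 46.8 to 50.9%. Tlr2 alone made up 51.0% and 65.2% in unshielded and shielded LPS libraries, and 41.8% and 34.5% in unshielded and shielded libraries without LPS. Tlr8 made up 8.94% and 0.247% in unshielded and shielded LPS libraries, and 6.36% and 1.23% without LPS.

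**Figure D5:**
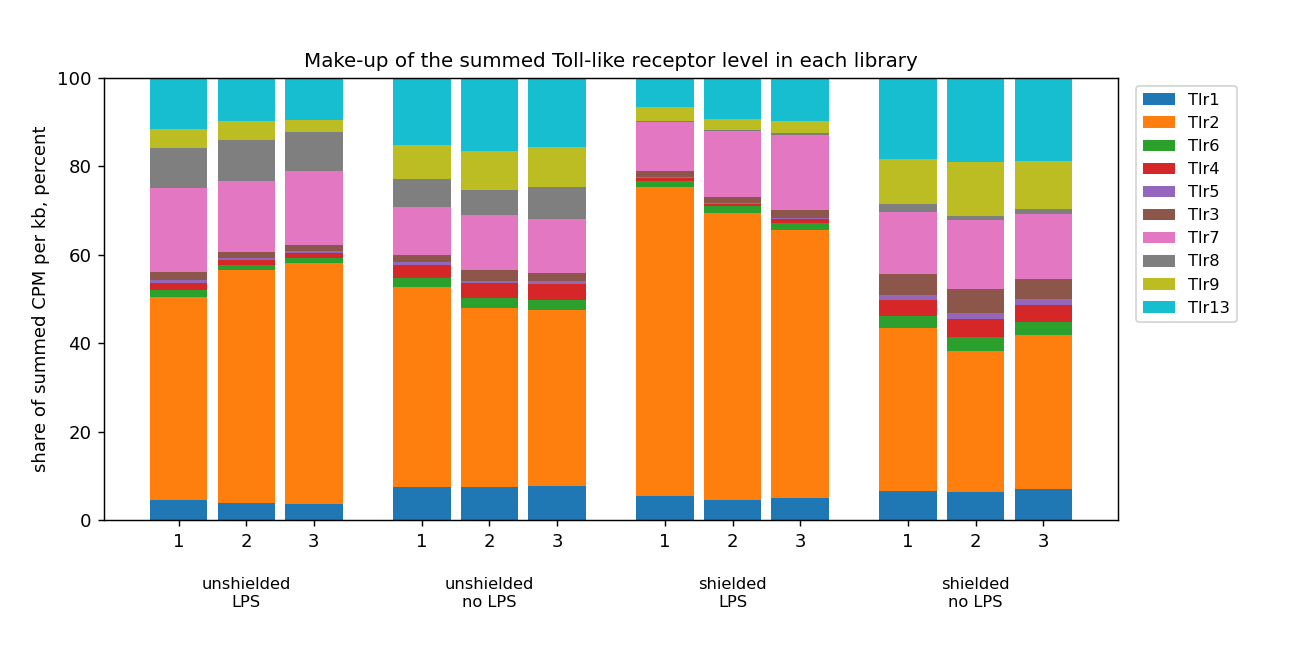
Share of each Toll-like receptor gene (percent of the summed CPM per kb of the 10 genes, vertical axis) in each of the 12 libraries, stacked by gene. Tlr2 fills 65.2% of the bar on average in shielded LPS libraries and 34.5% in shielded libraries without LPS.

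Other genes of the pathway were read from lists chosen for their roles. Of all genes tested 24.3% rose and 18.8% fell after LPS in unshielded mice, and 32.4% rose and 35.1% fell in shielded mice. Of 6 adaptors, 3 rose and 2 fell after LPS in unshielded mice and 5 rose and 1 fell in shielded mice, with median log2 fold changes of 0.42 and 0.94. Without the libraries with conflicting labels, with 1 shielded library left without LPS, the median in shielded mice was 0.96, and fewer adaptors were called. Myd88, the adaptor of all Toll-like receptors except Tlr3, rose by 1.65 ± 0.11 in unshielded and 1.71 ± 0.11 in shielded mice (edgeR adjusted p = 4.293e-07 and 9.093e-08). Tirap, which brings MyD88 to Tlr2 and Tlr4, rose by 1.09 ± 0.11 and 1.33 ± 0.11 (edgeR adjusted p = 6.907e-06 and 4.868e-07). After LPS 5 of the 6 adaptors were lower in unshielded mice, among them Ticam1, which encodes TRIF, the adaptor of Tlr3 and Tlr4 (-0.92 ± 0.12; edgeR adjusted p = 6.876e-05). Of all genes tested 25.6% were lower there.

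Of 17 kinases and ubiquitin ligases, 11 rose in unshielded and 15 in shielded mice after LPS, with median log2 fold changes of 0.46 and 0.59, and none fell in either. These counts stand beside 24.3% and 32.4% of all genes that rose. Without the libraries with conflicting labels the median in shielded mice was 0.54, and fewer of these genes were called. Ikbke, a kinase that activates IRF3, rose by 3.84 ± 0.32 in unshielded and 6.02 ± 0.36 in shielded mice, a difference of -2.18 ± 0.45 (edgeR adjusted p = 0.01134). Without those libraries the difference was -2.03 and was not called (edgeR adjusted p = 0.1668). Of 10 transcription factors 5 rose and 1 fell in unshielded mice, and 8 rose and none fell in shielded mice, with medians of 0.54 and 0.85. Without those libraries the median in shielded mice was 0.86, and fewer of the factors were called. Irf7, which drives type I interferon genes after Tlr7 and Tlr9, rose by 2.93 ± 0.25 and 2.97 ± 0.25 (edgeR adjusted p = 5.23e-06 and 1.691e-06).

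Of 7 accessory receptors 1 rose and 3 fell in each kind of mouse after LPS, with medians of 0.07 in unshielded and -0.13 in shielded mice. Of all genes 24.3% rose and 18.8% fell in unshielded mice, and 32.4% rose and 35.1% fell in shielded mice. Cd14, which passes LPS to Tlr4, rose by 2.15 ± 0.18 in unshielded and 2.61 ± 0.18 in shielded mice (edgeR adjusted p = 2.107e-06 and 1.798e-07). Cd180, a relative of Tlr4 without a signalling domain, fell by 2.70 ± 0.22 and 3.23 ± 0.23 on the log2 scale (edgeR adjusted p = 2.78e-06 and 2.892e-07). Of 12 chaperone and endosomal processing genes 8 rose and 2 fell in unshielded mice and 7 rose and 1 fell in shielded mice, with medians of 0.37 and 0.33. Without the libraries with conflicting labels the median in shielded mice was 0.26 for these genes, of which fewer were called, and -0.18 for accessory receptors. Ctsl, a cathepsin that cuts endosomal receptors, was lower in unshielded mice, with log2 fold changes of -1.27 ± 0.13 after LPS and -1.34 ± 0.13 without LPS (edgeR adjusted p = 1.716e-05 and 0.0001905). The value without LPS was -1.31 without the libraries with conflicting labels (edgeR adjusted p = 0.02203).

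Of 10 negative regulators 6 rose and 2 fell in unshielded mice and 6 rose and 1 fell in shielded mice, with medians of 1.05 and 0.93, beside 24.3% and 32.4% of all genes that rose. Without the libraries with conflicting labels the median in shielded mice was 0.94. Irak3, an IRAK family member that holds back MyD88 signalling, rose by 1.69 ± 0.13 in unshielded and 2.90 ± 0.14 in shielded mice, a difference of -1.21 ± 0.18 (edgeR adjusted p = 0.00249). Without those libraries the difference was -1.09 and was not called (edgeR adjusted p = 0.06053).

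The genes most like 9 of the members over the 12 libraries were taken from 9255 genes by Pearson's r of log2 CPM. The likest was Hnrnpll for Tlr2 (r = 0.997), Prmt7 for Tlr1 (0.989), Cep95 for Tlr4 (0.964) and Rptor for Tlr5 (0.941). It was Sla for Tlr7 (r = 0.996), Vipas39 for Tlr13 (0.994), Mndal for Tlr8 (0.991), Naip5 for Tlr9 (0.976) and Itgam for Tlr3 (0.984). Itgam encodes CD11b, the antigen used for sorting. The libraries fall into the 4 groups, which all genes share, so r describes differences between groups as well as within them.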

How the data were processed

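RNA from CD11b-enriched brain cells was linearly amplified and sequenced, per the labels' protocols. Per the submitters' processing notes, the tools were FastQC, STAR and HTSeq and the build was mm9. No source used here gives the versions, the annotation or the strand setting. The authors' deposited values are raw read counts of genes, with no normalization. Amplification differences are part of the spread between libraries.

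The 12 libraries were grouped by title into 4 groups of 3. The labels do not say that samples of a group were separate animals. The spread behind the p-values is that between these samples, and it may be technical. No pair within a group was a copy (chi-square per degree of freedom at least 11.2). The test for all genes was that of edgeR 4.0.16, run in R 4.3.3 (robust quasi-likelihood fit, TMM, two-sided, Benjamini-Hochberg, threshold 0.05) in one model over all 12 libraries and 18875 genes left by filterByExpr (minimum count 10, minimum total 15). Standard errors are the absolute log2 fold change over the square root of F. Log2 CPM used a prior count of 2. Exon lengths and shared stretches of 50 bases came from an annotation of GRCm38, another build than the files', so no coordinates were joined.

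The members and lists were chosen with earlier results of these data known. All members are named in every comparison, beside at most the 3 called genes of smallest p per list. The likeness search used named genes whose log2 CPM averaged 3 or more. Its result for Tlr6 is not reported here. Alternatives were DESeq2 1.42.0, RLE factors, library totals, no filter, the groups of a comparison alone, both readings of the conflicting labels, a replicate block, the neuron and oligodendrocyte level as a covariate, and leaving out each library.

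The titles give the replicate numbers. Deviations from group means of same-numbered libraries correlated at 0.112 to 0.547 between shielded LPS and no-LPS libraries, where every pair was over 0.1. There 4 of 6 libraries correlated best with their own number, and LPS library 1 correlated at 0.399 with no-LPS library 2. The numbers may pair these libraries, which the labels do not say. The main tests used no pairing. With a replicate block the calls on members for LPS in shielded mice stayed, except that on Tlr4 (edgeR adjusted p = 0.05023). On simulated counts with 200 changed genes the share of 2-fold changes found was 57% for LPS in unshielded mice, 50% for LPS in shielded mice, 52% for unshielded against shielded mice without LPS and 57% after LPS. Of 4-fold changes it was 76%, 83%, 84% and 81% in that order. The 200 genes were drawn at random from all genes tested, including genes of low count, and more genes were called in the data. These shares therefore do not describe the members.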

Additional observations from a re-analysis of the deposited data

Results flagged for a closer look

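For 7 of the 10 Toll-like receptor genes the LPS effect differed between unshielded and shielded mice by a test of the difference itself (edgeR quasi-likelihood test, Benjamini-Hochberg adjusted). Of all genes tested 13.3% were called. The log2 fold change after LPS in unshielded mice minus that in shielded mice was -1.63 for Tlr1, -1.74 for Tlr2, -0.64 for Tlr6, -0.48 for Tlr7 and -0.57 for Tlr13. It was 1.04 for Tlr5 and 1.83 for Tlr8. In the 19 alternatives other than grouping by the treatment field, the call was lost in 10 for Tlr8 and in none for Tlr1. Tlr5 had 14.3 ± 2.34 CPM in unshielded LPS libraries and 13.03 ± 0.22 CPM in shielded LPS libraries, beside 8.15 ± 0.80 CPM in unshielded and 15.3 ± 2.24 CPM in shielded libraries without LPS (SD, n = 3 each), and was called between unshielded and shielded mice without LPS alone. Tlr1, Tlr2, Tlr7 and Tlr13 were called between unshielded and shielded mice after LPS and not without LPS. Without the libraries with conflicting labels, which leaves 1 shielded library without LPS, the difference was -1.56 for Tlr1 and 2.46 for Tlr8. It was -1.58 for Tlr2, 0.91 for Tlr5, -0.64 for Tlr6, -0.49 for Tlr7 and -0.53 for Tlr13, whose calls were lost.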

How the results depend on the processing

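Of 33 calls on single members over the 5 comparisons, 19 kept their direction and their call in each of the 19 or 20 alternatives other than grouping by the treatment field: 5 of 8 for LPS in unshielded mice, 5 of 7 for LPS in shielded mice, 1 of 4 for unshielded against shielded mice without LPS, 7 of 7 after LPS, and 1 of 7 for the difference of LPS effects. The number of members called with edgeR ranged, when 1 library was left out, from 6 to 8, from 6 to 7, from 3 to 4, from 7 to 8 and from 4 to 7 in the same order, the lowest of the last without unshielded LPS library 3 or unshielded library 2 without LPS. With the 2 libraries with conflicting labels left out, 1 shielded library without LPS remains, with no spread of its own. The median log2 fold change of the members was then -0.16 between unshielded and shielded mice without LPS (-0.13 with all libraries). For the difference of effects it was -0.41 (-0.39). Fewer members were called in both. With no filter on low counts 3 members were called for the difference of effects (7 with the filter). Grouping the libraries with conflicting labels by the treatment field left fewer members called with edgeR in each of the 5 comparisons. That grouping counts them as shielded LPS libraries and leaves 1 shielded library without LPS. The log2 LPS effect in shielded mice was then 1.21 for Tlr1, 2.30 for Tlr2, 0.32 for Tlr3, 0.65 for Tlr6, 1.56 for Tlr7 and 0.63 for Tlr13. Over all genes, that grouping called 117 for LPS in unshielded mice (8128 by title), 0 in shielded mice (12738), 0 between unshielded and shielded mice without LPS (2043), 1464 after LPS (8423) and 0 for the difference (2512). Leaving those libraries out called 8369, 292 and 148 genes for LPS in shielded mice, unshielded against shielded mice without LPS and the difference. With the neuron and oligodendrocyte level as a covariate 6545 and 3449 genes were called for LPS in shielded mice and for unshielded against shielded mice without LPS, and with no filter 1571 for the difference. Leaving out 1 library gave 1094 to 2353 genes without LPS and 1615 to 6391 for the difference. With library totals 2660 genes rose and 6519 fell after LPS in unshielded mice (4585 and 3543 with TMM) and 4047 rose and 9127 fell in shielded mice (6119 and 6619). The sign turned, for values not called, for the LPS effect in shielded mice on Tlr9 with library totals (-0.18) and the covariate (-0.59, then called), on Tlr5 by the treatment field (0.043) and on Tlr8 with the covariate (0.16). It also turned for the LPS effect in unshielded mice on Tlr1 with library totals (-0.19) and the covariate (-0.10), for Tlr5 between unshielded and shielded mice after LPS by the treatment field (-0.031) and for the difference of effects on Tlr9 with the covariate (0.16). Tlr4 between unshielded and shielded mice without LPS turned to 0.0073 with library totals and 0.00024 with the replicate block. With 1 library left out the LPS effect in shielded mice ran from -0.72 to 0.18 for Tlr8 and from -0.017 to 0.37 for Tlr9, that in unshielded mice from -0.33 to 0.057 for Tlr9, and Tlr4 between unshielded and shielded mice without LPS from -0.080 to 0.039. The causes of these changes were not tested. The replicate block, a pairing by number, called 3405 genes and 6 members (Tlr1 and Tlr2 added) between unshielded and shielded mice without LPS, where same-numbered libraries correlated at -0.02 to 0.14 and 4 of 6 libraries correlated best with their own number. It called 8, 6, 7 and 7 members in the other comparisons in that order and, besides Tlr4 for LPS in shielded mice, changed no other member's call. Same-numbered libraries correlated at -0.12 to 0.02 for LPS in unshielded mice and at -0.26 to 0.48 between unshielded and shielded LPS libraries. The fit on only the groups of a comparison is the same as the full fit for the difference of effects. The lowest member count in any library was 181.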

Other observations

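The table also holds Tlr11 and Tlr12, mouse receptors for parasite profilin, which were looked at after their values were seen. Tlr12 had 13.7, 11.5 and 9.02 CPM in unshielded LPS libraries, 16.8, 12.6 and 12.2 CPM in shielded LPS libraries, 39.2, 40.1 and 41.0 CPM in unshielded libraries without LPS and 53.0, 52.1 and 44.0 CPM in shielded libraries without LPS. It fell by 1.81 ± 0.15 on the log2 scale in unshielded mice and by 1.84 ± 0.15 in shielded mice after LPS (SE; edgeR adjusted p = 2.202e-06 and 6.879e-07), and the effects differed by 0.03 ± 0.21 (edgeR adjusted p = 0.945). All 6 LPS libraries lay below all 6 libraries without LPS. No member fell by as much after LPS in either kind of mouse. Tlr11 was near the floor, with means of 0.469 and 0.853 CPM in unshielded and shielded LPS libraries and 0.592 and 0.967 CPM in unshielded and shielded libraries without LPS.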
